A study of Mus musculus with 6 samples.

Results

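The collagen chain genes were taken as every row of the deposited expression table whose symbol is Col, a number, the letter a and a number, which gave 44 genes of 46095. Expression was measured by RNA-seq in 6 libraries from C57BL/6 mice that had been on a high-fat diet (HFD) for 26 weeks. The 3 libraries of the group HFD-WT came from wild-type mice and the 3 of the group HFD-ARRB1-KO from mice without ARRB1 (beta-arrestin 1, which binds activated G protein-coupled receptors), so both groups carry the diet and no group on a normal diet was analysed here. The tissue is given as liver and the cell type as hepatocytes. The genotype labels of knockout replicates 2 and 3 read ARRB2-/- and ARRB3-/-, against their titles. The labels do not state sex, age at the start of the diet, how the allele was made or whether each library is 1 animal, and p-values reflect only how far these libraries vary, which may be technical.

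Collagens are extracellular proteins in which chains of repeated Gly-X-Y triplets wind into a triple helix. Fibril-forming types such as I, III and V build the scar of a fibrotic liver and are known mainly as products of activated stellate cells and portal fibroblasts. Type IV forms the sheets of basement membranes, type VI forms beaded filaments, FACIT types (fibril-associated, with interrupted helices) sit on the fibril surface, and type XVIII is a multiplexin whose tail can be cut to endostatin and which hepatocytes are known to make. The comparison sets RNA levels of knockout libraries beside those of wild-type libraries, all on the high-fat diet. No measure of steatohepatitis, fibrosis or collagen protein was part of the data used here.

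Sequence before the start site is shown for 3 chains, of which 2 (Col3a1 and Col5a1) were higher in the knockout libraries and 1 (Col27a1) was lower. The windows of Col1a2, Col4a1 and Col4a2, which were also higher, held annotated exonic bases (GENCODE vM21) and are not shown. Each is the 250 bases before the RefSeq start on GRCm38.p6, plus strand, at chr1:45311288-45311537 for Col3a1, chr2:27886175-27886424 for Col5a1 and chr4:63215162-63215411 for Col27a1. The Col27a1 window lies within the gene as annotated by GENCODE, which starts at 63214004. In these 3 stretches, capitals mark GGGCGG or its reverse complement CCGCCC (the GC box) and TATAAA.
Col3a1: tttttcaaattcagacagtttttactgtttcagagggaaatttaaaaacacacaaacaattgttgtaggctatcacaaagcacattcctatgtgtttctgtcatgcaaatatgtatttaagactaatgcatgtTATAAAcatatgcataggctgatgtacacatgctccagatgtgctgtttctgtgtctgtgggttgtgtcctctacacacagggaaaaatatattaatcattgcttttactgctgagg
Col5a1: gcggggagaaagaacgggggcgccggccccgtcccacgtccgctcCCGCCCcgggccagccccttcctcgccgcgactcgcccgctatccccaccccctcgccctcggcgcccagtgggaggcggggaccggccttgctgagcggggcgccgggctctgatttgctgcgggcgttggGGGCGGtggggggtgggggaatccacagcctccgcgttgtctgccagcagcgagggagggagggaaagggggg
Col27a1: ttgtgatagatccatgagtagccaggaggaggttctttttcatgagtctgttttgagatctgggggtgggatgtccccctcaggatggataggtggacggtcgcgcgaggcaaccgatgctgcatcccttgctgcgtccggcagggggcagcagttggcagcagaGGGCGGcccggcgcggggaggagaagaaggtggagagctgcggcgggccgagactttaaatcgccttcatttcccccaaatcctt
The Col3a1 stretch is 35.2% G and C and holds TATAAA beginning 117 bases before the start. The Col5a1 stretch is 76.4% G and C and holds 2 GC boxes, and that of Col27a1 is 59.6% G and C and holds 1. In windows of this length, searched on both strands, the GC box occurred in 32.7% of 32817 RefSeq start windows and TATAAA (reverse TTTATA) in 12.4%. The 35 collagen genes matched in the RefSeq table had 38 windows. Of these windows, 22 held a GC box, 5 held TATAAA, and 13 held CCAAT or ATTGG, which 33.8% of all windows held. Counted by gene, 21, 5 and 13 of the 35 had the motif in a window. The other 9 chains had no entry there: Col1a1, Col2a1, Col4a3, Col5a2, Col9a3, Col12a1, Col14a1, Col22a1 and Col26a1. Col4a1 and Col4a2 are transcribed away from each other, and their annotated starts (GENCODE vM21) overlap by 22 bases at chr8:11312805-11312826, shown because both genes were higher in the knockout libraries. Motifs are not marked in this overlap, which holds the letters of a GC box in lower case.
Start overlap of Col4a1 and Col4a2, plus strand, from the RefSeq promoter table: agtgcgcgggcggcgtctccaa

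The values are FPKM (fragments scaled to gene length and library size), as deposited, and estimated depth ran from 13910000 fragments in knockout replicate 1 to 35060000 in knockout replicate 2. The level of Arrb1 was set against the ARRB1-KO titles. Levels of the other genes named in the genotype labels were not looked at, so that part of the conflict is not settled. Arrb1 (chromosome 7, 99535466 to 99606771) measured 3.86, 22.7 and 16.9 FPKM in the wild-type libraries, and 0.918, 1.05 and 1.16 in the knockouts, with no overlap. Its log2 difference was -2.64 ± 0.514 (SE, limma, adjusted p = 0.0275), and it was low in both libraries whose genotype label names another gene. The call was lost when wild-type replicate 2 or 3 was left out (adjusted p by limma 0.0904 and 0.0698), as it was for knockout replicate 1, 2 or 3 (0.0606, 0.0985 and 0.0662). Hepatocyte markers were abundant in each library, with a summed level of 56880 to 65858 FPKM in the wild-type libraries against 52509 to 60994 in the knockout libraries. Defining genes of other liver cell types were also present, so the material was not purely hepatocytes by its RNA. Of the stellate (16), endothelial (14) and Kupffer cell (12) markers measured, 15, 14 and 12 averaged at least 1 FPKM over the 6 libraries.

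Of the 44 chains, 17 had a mean above 0.5 FPKM over the 6 libraries. The wild-type mean was above 0.5 FPKM for 16 chains and the knockout mean for 18. Col16a1 (mean 0.586 FPKM) was just inside this level, and Col12a1 (0.482 FPKM) and Col8a1 (0.462 FPKM) just outside, although Col12a1 reached 0.703 FPKM in the knockout libraries. The filter for testing was a mean of at least 1 FPKM, which 16 chains passed and 28 did not. Col5a2 passed it only through its knockout values.

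The scar-forming chains of types I and III, the basement membrane chains Col4a1 and Col4a2 and the fibril-associated Col14a1 were higher in the knockout libraries, while the most abundant chain, Col18a1, was not called. In all, 7 of the 16 tested chains were higher, 1 was lower and 8 did not pass (limma, adjusted p under 0.05 over all 10633 tested genes). Among all tested genes 5.30% were called higher and 1.60% lower. The 7 were Col1a1, Col1a2, Col3a1, Col5a1, Col4a1, Col4a2 and Col14a1, and the lower chain was Col27a1. The median log2 fold change, knockout minus wild type on log2(FPKM + 1), was 0.53 over the tested chains and 0.07 over all tested genes. Folds given below are ratios of mean FPKM, whereas each log2 value is a difference of log2(FPKM + 1), which is smaller for low genes. In bulk libraries, more cells of a type and more RNA per cell cannot be told apart. By class, calls were made for 5 of 7 tested fibril-forming chains (4 higher, 1 lower), both tested network chains, the 1 tested fibril-associated chain, and none of the 3 beaded filament, 2 multiplexin and 1 transmembrane chains tested. The exact two-sided permutation p of each called chain was 0.1, the smallest that 3 against 3 libraries can give.

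**Figure D1:**
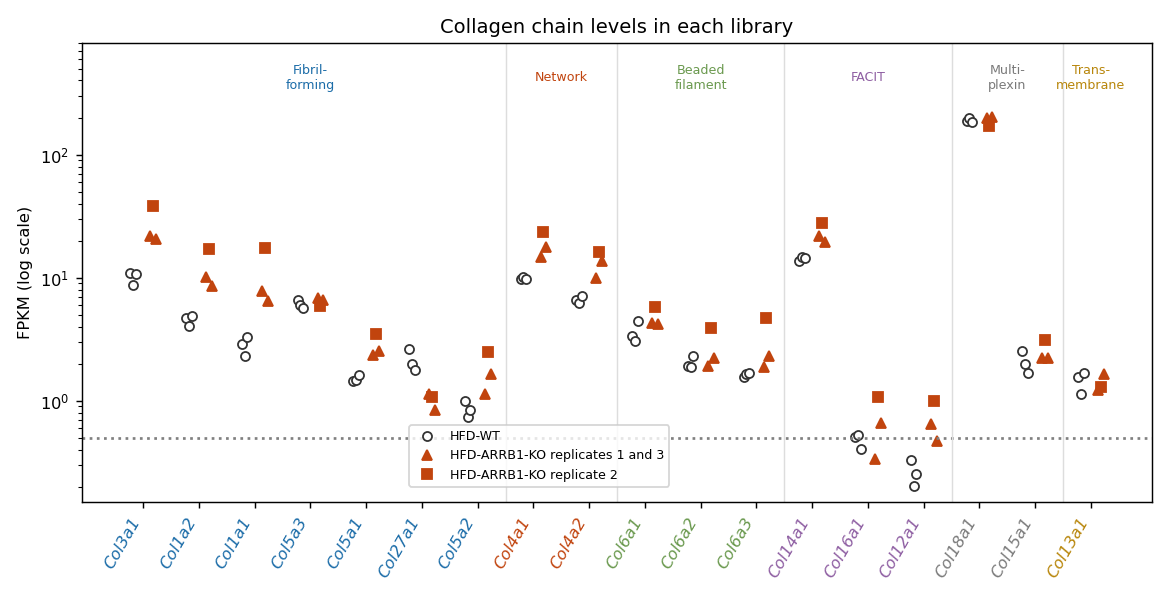
FPKM on a log axis for the 18 chains with a mean of at least 0.5 FPKM in either genotype, 1 point per library, grouped by collagen class; the dotted line is 0.5 FPKM. Open circles are wild type and filled marks are knockout, replicates 1 and 3 as triangles and replicate 2 as squares. Replicate 2 of the knockout was the highest of the 6 libraries for 14 of the 18 chains.

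Type I collagen, the main protein of scar fibrils, is built from the products of Col1a1 (chromosome 11, 94936224 to 94953042, GRCm38) and Col1a2 (chromosome 6, 4504814 to 4541544). Col1a1 had 2.92, 2.33 and 3.31 FPKM in the wild-type libraries (in the order of replicates 1 to 3, here and below) against 7.87, 17.4 and 6.47 in the knockout libraries. The lowest knockout library was thus above the highest wild-type library, and replicate 2 stood well above the other two knockout libraries. The means were 2.85 ± 0.493 and 10.6 ± 5.94 FPKM (SD, n = 3 each), a 3.71-fold difference, or 1.48 ± 0.308 on the log2 scale (SE, limma, adjusted p = 0.0336). Col1a2 was at 4.74, 4.03 and 4.87 FPKM in the wild-type libraries against 10.2, 17.1 and 8.63 in the knockout libraries, again without overlap and with replicate 2 highest. It rose 2.64-fold, by 1.18 ± 0.218 on the log2 scale (SE, limma, adjusted p = 0.0235).

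Type III collagen, which co-assembles with type I in compliant tissue, is made from Col3a1 alone (chromosome 1, 45311538 to 45349706, plus strand). Col3a1 was the most abundant fibril-forming chain, at 10.99, 8.67 and 10.7 FPKM in the wild-type libraries against 21.9, 38.04 and 20.5 in the knockout libraries. Each knockout library was higher than each wild-type library. It rose 2.65-fold (log2 fold change 1.27 ± 0.221, SE, limma, adjusted p = 0.0199), the smallest adjusted p of the family.

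Type V collagen starts fibrils and limits their width, and its chains differed in their values. Col5a1 (chromosome 2, 27886425 to 28039514) had 1.46, 1.48 and 1.61 FPKM in the wild-type libraries against 2.37, 3.47 and 2.56 in the knockout libraries, a 1.85-fold rise (log2 fold change 0.59 ± 0.130, SE, limma, adjusted p = 0.0408). Col5a2 was at 1.003, 0.742 and 0.843 FPKM in the wild-type libraries against 1.13, 2.51 and 1.66 in the knockout libraries. Its groups did not overlap, but it was not called (log2 fold change 0.54 ± 0.187, SE, limma, adjusted p = 0.123); on whole reads recovered from the FPKM steps, limma's voom called it at an adjusted p of 0.0479 with a log2 fold change of 1.09. With voom, which called the same 8 chains besides, 7.52% of 10630 genes were higher and 1.86% lower. Col5a2 lies 24614 bases from Col3a1 on chromosome 1, and the genes point towards each other. Col5a3 was at 6.64, 6.02 and 5.72 FPKM in the wild-type libraries against 6.91, 5.90 and 6.54 in the knockout libraries, with overlapping groups (0.06 ± 0.096 on the log2 scale, SE, limma, adjusted p = 0.722). At these levels Col5a3 was the most abundant type V chain in both genotypes.

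Col27a1, a long fibril-forming chain known from cartilage, moved the other way (chromosome 4, 63214004 to 63334991). It was at 2.62, 1.9999 and 1.78 FPKM in the wild-type libraries against 1.13, 1.07 and 0.847 in the knockout libraries, so that each knockout library was below each wild-type library. The knockout mean was 52.5% lower (log2 fold change -0.63 ± 0.136, SE, limma, adjusted p = 0.0372), from 123 to 293 reads per knockout library and 423 to 685 per wild-type library. The remaining fibril-forming chains were not tested: Col24a1, Col11a1 and Col11a2 had means of 0.030, 0.0008 and 0.0057 FPKM, and Col2a1 was listed at 0 in all 6 libraries.

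Type IV collagen of basement membranes came from Col4a1 and Col4a2, the divergent pair on chromosome 8. Col4a1 was at 9.70, 10.1 and 9.81 FPKM in the wild-type libraries against 14.7, 23.3 and 17.8 in the knockout libraries. The wild-type libraries lay close together, and all knockout libraries were above them. It rose 1.89-fold (log2 fold change 0.83 ± 0.151, SE, limma, adjusted p = 0.0224). Col4a2 followed at 6.61, 6.23 and 7.13 FPKM in the wild-type libraries against 10.01, 16.1 and 13.5 in the knockout libraries, a 1.99-fold rise (log2 fold change 0.87 ± 0.157, SE, limma, adjusted p = 0.0222). The other type IV chains, which form the specialised membranes of kidney and other organs, were low: Col4a5 had a mean of 0.333 FPKM, Col4a4 0.082, Col4a6 0.059 and Col4a3 0.048 FPKM. Among the short-chain network collagens, Col8a1 was at 0.431 ± 0.0332 FPKM in the wild-type libraries against 0.492 ± 0.224 in the knockout libraries (SD, n = 3 each), Col8a2 had a mean of 0.092 FPKM, and Col10a1 was listed at 0 throughout.

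Type VI collagen, a filament around cells, is made from Col6a1, Col6a2 and Col6a3 in liver. None of the 3 was called by limma or by voom, and none had an unadjusted p under 0.05 by limma (0 of 3 each). By voom the unadjusted p was 0.0462 for Col6a1, 0.123 for Col6a2 and 0.0222 for Col6a3. Col6a1 was at 3.34, 3.05 and 4.45 FPKM in the wild-type libraries against 4.29, 5.77 and 4.19 in the knockout libraries, and Col6a2 at 1.92, 1.87 and 2.32 FPKM against 1.93, 3.94 and 2.22 FPKM. Both overlapped between groups. Col6a3 was at 1.57, 1.64 and 1.70 FPKM in the wild-type libraries against 1.88, 4.68 and 2.30 in the knockout libraries, without overlap, and its log2 fold change was 0.52 ± 0.234 (SE, limma, adjusted p = 0.214). Knockout replicate 2 stood far above the other libraries.

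Of the fibril-associated chains, Col14a1 (chromosome 15, 55307750 to 55520803), whose product sits on the surface of type I fibrils, was the only one above 1 FPKM on average. It was at 13.6, 14.8 and 14.3 FPKM in the wild-type libraries against 21.7, 27.6 and 19.6 in the knockout libraries, with no overlap. The rise was 1.61-fold (log2 fold change 0.64 ± 0.127, SE, limma, adjusted p = 0.0292). Col12a1, its relative in stressed connective tissue, was at 0.328, 0.202 and 0.253 FPKM in the wild-type libraries against 0.644, 0.991 and 0.474 in the knockout libraries, from 66 to 407 reads per library. The groups did not overlap and the means differed 2.69-fold, but Col12a1 was below the filter, and with no filter it was not called (limma, adjusted p = 0.179). Col16a1 was at 0.510, 0.529 and 0.407 FPKM in the wild-type libraries against 0.336, 1.08 and 0.659 in the knockout libraries, with overlap (limma with the filter at 0.5 FPKM, adjusted p = 0.589). At that filter 4.40% of 12078 genes were called higher and 1.34% lower.

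**Figure D2:**
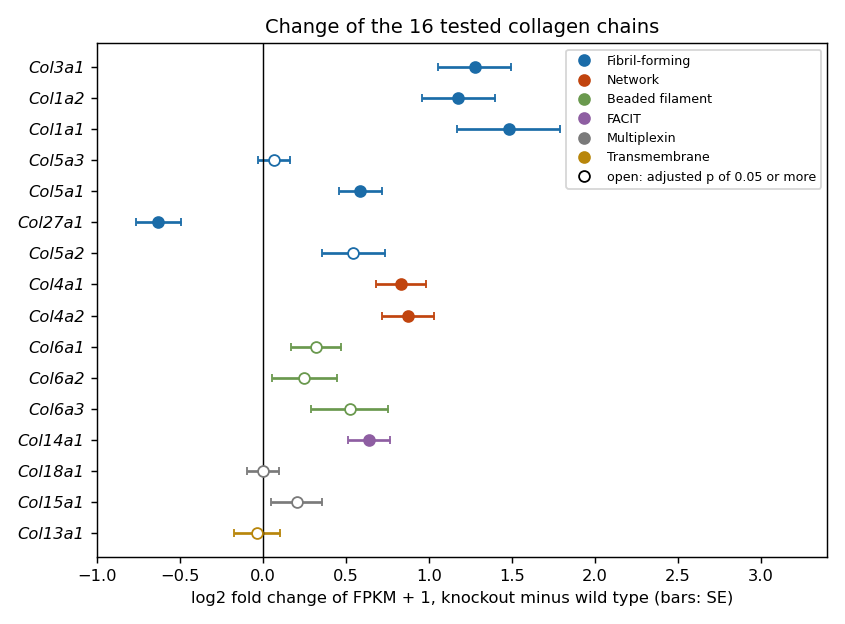
Log2 fold change of FPKM + 1, knockout minus wild type, with its standard error, for the 16 tested chains coloured by class; filled points were called at an adjusted p under 0.05 and open points were not. Col1a1, Col3a1 and Col1a2 lie farthest to the right, at 1.48, 1.27 and 1.18, and Col27a1 alone lies clearly to the left, at -0.63.

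Col18a1 (chromosome 10, 77052178 to 77166548) was by far the most abundant chain and showed no call. Its values were 186, 197 and 184 FPKM in the wild-type libraries against 197, 170.3 and 202 in the knockout libraries, and knockout replicate 2, the highest library for the 7 chains called higher, was lowest here. The means were 189 ± 7.09 and 189.6 ± 16.9 FPKM (SD, n = 3 each; log2 fold change 0.00044 ± 0.097, SE, limma, adjusted p = 0.998). Col18a1 made up 72.3 ± 1.68% of the summed FPKM of all chains in wild type and 58.97 ± 8.50% in knockout (SD, n = 3 each). Col15a1, the other multiplexin and a vessel basement membrane component, was at 2.56, 1.98 and 1.67 FPKM in the wild-type libraries against 2.23, 3.14 and 2.23 in the knockout libraries, with overlap. Col13a1, a transmembrane collagen of cell contacts, was at 1.57, 1.13 and 1.67 FPKM against 1.23, 1.29 and 1.65 FPKM, also with overlap. Neither was called (limma, adjusted p = 0.445 and 0.894).

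All 44 chains together summed to 260.2, 266 and 258 FPKM in the wild types and 309, 346 and 315 in the knockouts, a 1.24-fold difference without overlap. Without Col18a1, which made up most of that sum, the 43 remaining chains summed to 73.9, 68.3 and 74.6 FPKM in the wild-type libraries against 112, 176 and 114 in the knockout libraries. Fibril-forming chains summed to 28.2 ± 2.64 FPKM in the wild-type libraries against 61.5 ± 20.97 in the knockout libraries (SD, n = 3 each), and the network chains to 17.5 ± 0.505 and 33.0 ± 7.91 FPKM. Neither sum overlapped between the groups, while the beaded filament chains did overlap, at 6.76 to 8.68 FPKM in the wild-type libraries against 8.19 to 14.8 in the knockout libraries.

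**Figure D3:**
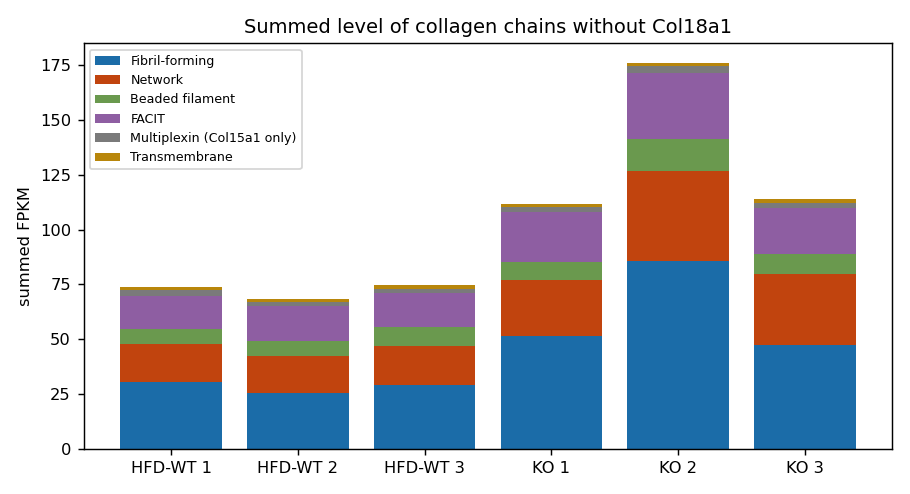
Stacked bars of the summed FPKM of the 43 collagen chains other than Col18a1 in each library, by class. The wild-type bars reach 68.3 to 74.6 FPKM and the knockout bars 112 to 176 FPKM, with knockout replicate 2 the tallest.

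Ratios of FPKM were taken between chains that share a protein (types I, IV and VI) and between Col3a1 and Col1a1, the chains of different fibril types, 4 ratios in all, by exact two-sided permutation tests of the log2 ratio. With 3 against 3 libraries the smallest possible p is 0.1. The Col1a1 to Col1a2 ratio was 0.617, 0.579 and 0.680 in wild type and 0.771, 1.02 and 0.749 in knockout, without overlap (exact permutation p = 0.1, 0.2 after Benjamini-Hochberg adjustment). Col1a1 thus exceeded Col1a2 in knockout replicate 2 only, among the 6 libraries. The Col3a1 to Col1a1 ratio was 3.76, 3.72 and 3.24 in wild type and 2.78, 2.19 and 3.17 in knockout, also without overlap (exact permutation p = 0.1, adjusted 0.2), although wild-type replicate 3 and knockout replicate 3 lay next to each other. The Col4a1 to Col4a2 ratio was 1.49 ± 0.124 in wild type and 1.41 ± 0.0821 in knockout (SD, n = 3 each; exact permutation p = 0.5), and the Col6a1 to Col6a2 ratio was 1.76 ± 0.141 and 1.86 ± 0.380 (exact permutation p = 0.9). Both overlapped between the groups.

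**Figure D4:**
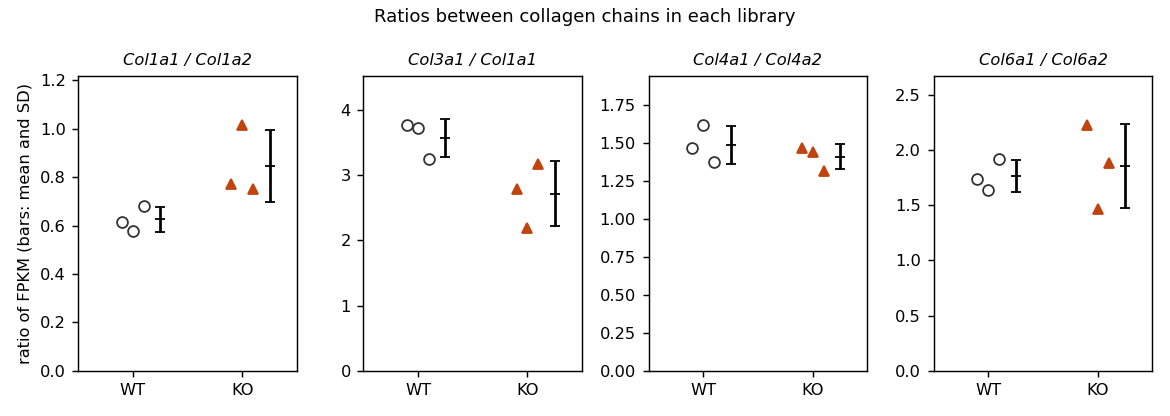
Ratio of FPKM between pairs of collagen chains in each library, with the mean and SD of each genotype (n = 3) beside the points. The type I ratio lies between 0.579 and 0.680 in wild type and between 0.749 and 1.02 in knockout, and the type IV ratio overlaps between the genotypes.

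The number of calls changed with single libraries. Of the wild-type libraries, leaving out replicate 1 reduced the 7 higher calls to 1 (Col3a1), leaving out replicate 2 to 0, and leaving out replicate 3 to 2 (Col3a1 and Col4a2). They were 5 without knockout replicate 1, 4 without knockout replicate 2 (Col1a1, Col1a2, Col3a1 and Col4a1) and 4 without knockout replicate 3 (Col1a1, Col1a2, Col3a1 and Col14a1). Over all 10633 tested genes the higher calls fell as well, from 564 to 255, 122 and 332 without wild-type replicates 1, 2 and 3. Without knockout replicates 1, 2 and 3 they fell to 428, 100 and 256. Lower calls over all tested genes fell from 170 to 94, 55, 117, 112, 63 and 121, in the same order of libraries. The call for Col27a1 was lost without any 1 of the 6 libraries. The direction of all 8 held in each of these fits, with log2 fold changes of 1.09 to 1.74 for Col1a1, 0.91 to 1.37 for Col1a2, 1.003 to 1.43 for Col3a1, 0.46 to 0.67 for Col5a1, 0.66 to 0.98 for Col4a1, 0.73 to 1.05 for Col4a2, 0.504 to 0.74 for Col14a1 and -0.71 to -0.52 for Col27a1. Adjusted p reached at most 0.129 (Col5a1). Without the filter, where 22476 genes were adjusted over, 0 chains were called by limma, while 0.392% of all genes were called higher and 0.258% lower. The 8 chains then had unadjusted p-values of 0.00201 to 0.00582. Knockout replicate 1, the only knockout library whose genotype label reads ARRB1-/-, was also set alone against the wild-type libraries. The log2 fold changes were then 1.21 for Col1a1, 1.02 for Col1a2, 1.05 for Col3a1 and 0.42 for Col5a1. They were 0.53 for Col4a1, 0.53 for Col4a2, 0.58 for Col14a1 and -0.55 for Col27a1. All 8 were smaller in size than with all 6 libraries. This fit was chosen after seeing the data and assumes that 1 library varies like the wild-type group.

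**Figure D5:**
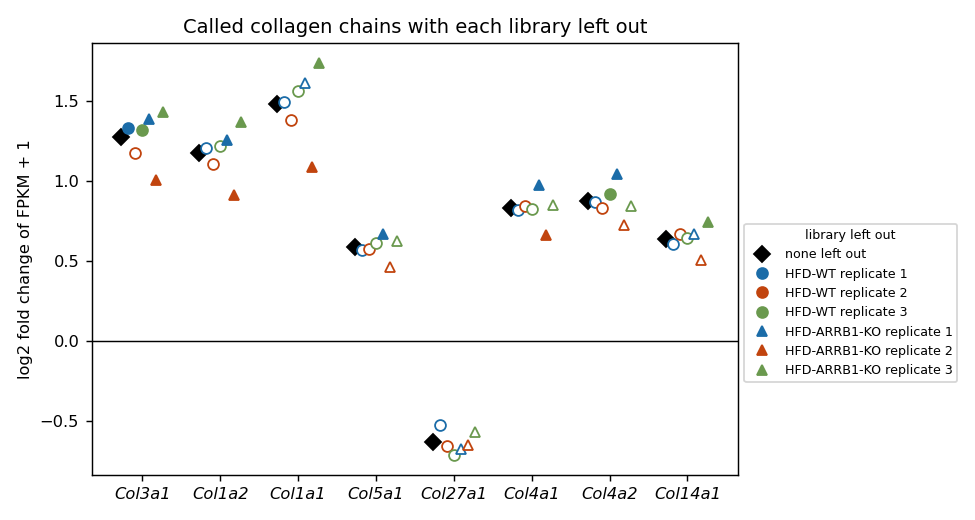
Log2 fold change of FPKM + 1 for the 8 called chains with all 6 libraries (diamond) and with each library left out (circles, wild type; triangles, knockout); filled marks have an adjusted p under 0.05. All marks of the 7 higher chains lie above 0 and those of Col27a1 below, and the lowest values of the higher chains are those without knockout replicate 2.

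Groups without overlap were also counted. Of the 16 tested chains, 9 were higher in each knockout library than in each wild-type library and 1 was lower, where 23.4% and 7.81% of all tested genes were so separated. The 9 include Col5a2, which passed the filter only through its knockout values. Knockout replicate 2 was the highest of the 6 libraries for all 7 chains called higher and for 12 of the 16 tested, against 34.1% of all tested genes. It was also the deepest library, and whether depth plays a part in its collagen values was not tested.

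Markers of the cells that could carry these chains were set beside them. Among all tested genes, 23.4% were higher and 7.81% lower without overlap, against which the counts of each list below are to be read. The summed level of the 16 stellate cell markers was 128 to 138 FPKM in the wild-type libraries against 123 to 142 in the knockout libraries, with overlap, and 3 of the 15 tested were higher without overlap. Of the 10 myofibroblast markers, 3 of 7 tested were higher without overlap, and their sum overlapped (33.1 to 70.02 FPKM in wild type, 51.8 to 118 FPKM in knockout). Portal fibroblast markers gave 3 of 6 tested, with sums of 8.77 to 20.1 and 14.4 to 27.4 FPKM. The summed endothelial markers did not overlap, at 158 to 179 FPKM in the wild-type libraries against 188 to 214 in the knockout libraries, and 10 of 14 tested were higher without overlap. Kupffer cell markers overlapped (337 to 367 FPKM against 351 to 444), with 4 of 12 higher and 3 lower without overlap, as did cholangiocyte markers (36.4 to 68.6 FPKM against 44.8 to 109), with 1 of 6 higher. Spp1 is in both the myofibroblast and the cholangiocyte list, so the sums of these lists are not independent. Hepatocyte markers had 7 of 14 lower without overlap. Limma called 4 of 14 endothelial, 2 of 7 myofibroblast, 2 of 6 portal fibroblast and 1 of 6 cholangiocyte markers higher, and 1 of 12 Kupffer cell and 3 of 14 hepatocyte markers lower, against 5.30% higher and 1.60% lower among all tested genes. It called 0 of 15 stellate cell markers, as did voom, with 3 at an unadjusted p under 0.05. Of the other lists, voom called 5 endothelial, 3 myofibroblast, 3 portal fibroblast and 1 cholangiocyte markers higher. It called 1 Kupffer cell and 4 hepatocyte markers lower, where by voom 7.52% of all tested genes were higher and 1.86% lower. None of the genes of these lists was listed at 0 in all 6 libraries, and the part of any of these cell types in the collagen values was not tested.

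The chains below 0.5 FPKM in both genotypes numbered 26, with means up to 0.462 FPKM and a highest single value of 0.748 FPKM (Col8a1 in knockout replicate 2). Col20a1, a fibril-associated chain, was the steadiest of the higher ones, at 0.291 to 0.405 FPKM over the 6 libraries from 30 to 105 reads. Col4a5 ranged from 0.132 to 0.693 FPKM within the knockout group alone. Col4a6 was the 1 chain of these 26 whose groups did not overlap, at 0.032 ± 0.022 FPKM in the wild-type libraries against 0.086 ± 0.013 in the knockout libraries (SD, n = 3 each), from at most 23 reads per library. The share of all genes so separated at this level was not taken, so nothing is concluded from it. Chains at 0 in all libraries were Col2a1, Col9a2, Col10a1 and Col26a1, and 4 more (Col6a4, Col9a1, Col11a1 and Col19a1) were above 0 in 1 library only. The rest were Col4a3, Col4a4, Col4a6, Col6a5, Col6a6, Col7a1, Col8a2, Col9a3, Col11a2, Col17a1, Col22a1, Col23a1, Col24a1, Col25a1 and Col28a1, with means from 0.0033 (Col22a1) to 0.133 FPKM (Col6a6).

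Collagen chains need a set of enzymes and chaperones before they leave the cell. Of 17 tested genes of folding and modification, 1 was lower and 0 were higher by limma or voom, against 5.30% higher and 1.60% lower among all tested genes by limma, with 7 at an unadjusted p under 0.05 (median log2 fold change 0.21, against 0.07 for all tested genes). Without overlap between the groups, 7 of the 17 were higher and 1 was lower, against 23.4% and 7.81% of all tested genes. The lower gene was Ppib, which encodes the prolyl isomerase cyclophilin B, at 241, 233 and 244 FPKM in the wild-type libraries against 169.8, 160.3 and 186 in the knockout libraries (log2 fold change -0.48 ± 0.0901, SE, limma, adjusted p = 0.0251). P3h1, its partner in prolyl 3-hydroxylation, was at 5.63 ± 0.253 and 7.09 ± 0.205 FPKM (SD, n = 3 each) and did not pass (limma, adjusted p = 0.0792). The Ppib call was lost with any 1 wild-type library left out, or knockout replicate 1 or 2.

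Outside the cell, procollagen is trimmed and cross-linked. Of 13 tested genes of these steps, 2 were higher and 0 lower, against 5.30% higher and 1.60% lower among all tested genes (median 0.27; 7 at an unadjusted p under 0.05, and voom also called 0 lower). Tgm2, the tissue transglutaminase, was at 54.4, 49.2 and 48.8 FPKM in the wild-type libraries against 72.4, 88.0 and 76.9 in the knockout libraries (limma, adjusted p = 0.0164). Loxl2, a lysyl oxidase that cross-links collagen, went from 0.619 ± 0.0428 to 1.53 ± 0.262 FPKM (SD, n = 3 each; limma, adjusted p = 0.0265) and passed the filter only through its knockout values. Leaving out replicate 2 of either genotype gave 0 calls, and leaving out replicate 3 of either genotype or wild-type replicate 1 gave 1.

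Among receptors for collagen, 0 of 5 tested genes were called by limma, 2 had an unadjusted p under 0.05 and voom called 1 higher. Of all tested genes, 5.30% were called higher and 1.60% lower by limma, and 7.52% and 1.86% by voom. With only 5 tested genes, no conclusion is drawn for the receptors. Cd44, which binds hyaluronan and collagen, was at 2.86 ± 0.0438 FPKM in the wild-type libraries against 5.20 ± 1.55 in the knockout libraries (SD, n = 3 each; limma, adjusted p = 0.0626), and was not called. Itga1, a collagen-binding integrin chain, was at 5.19 ± 0.393 and 6.37 ± 0.526 FPKM (limma, adjusted p = 0.157). Without knockout replicate 1, limma called 1 receptor gene higher.

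Collagen breakdown had 3 higher genes and 1 lower of 9 tested, against 5.30% higher and 1.60% lower among all tested genes (median 0.297). Mmp12, the macrophage elastase, was at 0.229, 0.0098 and 0.180 FPKM in the wild-type libraries against 1.51, 4.89 and 3.15 in the knockout libraries, and passed the filter only through the latter. Pepd, the prolidase that frees proline from dipeptides of degraded collagen, rose from 26.9 ± 2.02 to 38.4 ± 1.08 FPKM (SD, n = 3 each; limma, adjusted p = 0.0192). The lysosomal protease genes went apart, with Ctsb at 137 ± 3.75 and 186 ± 10.6 FPKM (adjusted p = 0.0270 by limma) and Ctsl at 181 ± 4.50 and 138 ± 5.73 FPKM (adjusted p = 0.0336 by limma). Leaving out wild-type replicate 2 gave 0 higher genes, leaving out wild-type replicate 1 or knockout replicate 2 gave 1, and leaving out any other library gave 2. The Ctsl call was lost with any 1 library left out.

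Transforming growth factor beta is the best known inducer of collagen genes, and of 17 tested genes of its pathway 3 were higher and 0 lower, against 5.30% higher and 1.60% lower among all tested genes (median 0.24; 6 at an unadjusted p under 0.05, and voom also called 0 lower). Ctgf, a classical target, was at 4.38, 4.98 and 3.94 FPKM in the wild-type libraries against 8.29, 11.2 and 10.8 in the knockout libraries. Tgfbr2, the type II receptor, went from 6.94 ± 0.203 to 11.4 ± 1.85 FPKM (SD, n = 3 each; limma, adjusted p = 0.0241), and Thbs1, an activator of the latent ligand, from 0.995 ± 0.414 to 2.61 ± 0.585 FPKM (limma, adjusted p = 0.0367). Thbs1 passed the filter only through its knockout values. All 3 were higher in each knockout library than in each wild-type library. Leaving out replicate 3 of either genotype, the first wild-type library or the second knockout library gave 1 higher gene, leaving out wild-type replicate 2 gave 2, and leaving out knockout replicate 1 gave 4.

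The pattern of Col1a1 over the 6 libraries was compared with that of the other tested genes by Pearson's r on log2(FPKM + 1), given as a description over 6 libraries that share their scaling. The genotype means were not removed, so r includes the genotype difference by which chains were called. It is no separate evidence that genes vary together. Within the family, r was 0.998 for Col1a2, 0.993 for Col3a1, 0.979 for Col5a1, 0.976 for Col14a1, 0.951 for Col4a1 and 0.932 for Col4a2. It was 0.034 for Col5a3, -0.480 for Col18a1 and -0.772 for Col27a1. The 5 genes outside the family with the highest r were C3ar1 (0.996), Anxa4 (0.995), Cyp2a4 (0.993), Brip1os (0.993) and Mbtps1 (0.992), of which Cyp2a4 was called (limma, adjusted p = 0.0254) and passed the filter only through its knockout values (0.108 ± 0.026 FPKM in the wild types, 2.89 ± 2.08 in the knockouts, SD, n = 3 each).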

How the data were processed

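The members and gene lists were chosen with earlier results of these data known. The authors deposited 1 table of FPKM values, with no read counts, and the submitters' processing notes name Bowtie 0.12.2, HISAT2, mm8 and mm10. The role of each, the annotation and the treatment of strand are not given in the sources used here. Of the 18 chains described one by one, none shared more than 1.44% of its exonic bases with any 1 overlapping gene (GENCODE vM21, GRCm38, by symbol). Groups come from the sample titles.

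Genotypes were compared by limma 3.58.1 (R 4.3.3; eBayes with trend, two-sided, genotype as the only term) on log2(FPKM + 1) for 10633 genes averaging 1 FPKM or more, with Benjamini-Hochberg adjustment over them and a call at 0.05. Fold changes on this scale understate the change of low genes. Sums, ratios and exact permutation tests used Python 3.11.15, pandas 2.3.3, and plots matplotlib 3.10.9. Reads were recovered as the smallest whole numbers whose ratios give the FPKM of a gene across libraries, which succeeded for 17547 of 17549 genes seen in 4 or more libraries and for all 36 chains seen in 2 or more, and library totals were estimated from annotated lengths of genes with 1 transcript. The most abundant chain had 18228 to 41292 recovered reads per library. The fit and the recovery were tested on simulated data. Named genes are Arrb1, each chain with a mean of at least 0.5 FPKM in either genotype, up to 5 called members with the smallest p per pathway list (or the 2 smallest p where fewer than 2 were called) and the 5 genes most like Col1a1; other chains were named after their values were seen. Alternatives were a pseudocount of 0.1, no filter, filters at 0.5 and 5 FPKM, TPM, median-of-ratios and quantile scaling, eBayes without trend, the replicate number as a block, voom on recovered reads, each library left out, and knockout replicate 1 alone.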

Additional observations from a re-analysis of the deposited data

How the results depend on the processing

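Across the 16 tested chains, all calls held with a pseudocount of 0.1, the filter at 0.5 FPKM, eBayes without trend and the 3 rescalings, and voom added Col5a2. The higher chains numbered 0 with no filter and 0 with knockout replicate 1 alone, and 0 to 5 with 1 library left out. The lower chain was lost (0) with no filter, with the filter at 5 FPKM, which removes it, with the replicate block, with knockout replicate 1 alone and with any library left out (0 to 0). Directions turned only for chains that were not called: Col18a1 was at -0.097 after median-of-ratios scaling and at -0.0099, -0.020, -0.029 and -0.045 leaving out replicate 1 or 3 of the wild types or of the knockouts (up to 0.076 with 1 library left out), Col5a3 at -0.021 and -0.018 after median-of-ratios and quantile scaling, Col13a1 at 0.027 and 0.011 leaving out wild-type replicate 3 and knockout replicate 1 (down to -0.137 with 1 library left out), and Col6a2 at -0.050 with knockout replicate 1 alone.

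Chains above 0.5 FPKM numbered 17, 21 on the TPM scale, 16 above 1 FPKM, and 16 to 18 with 1 library left out. The log2 ratio of Col6a1 to Col6a2 went from 0.058 to -0.082 without knockout replicate 1 and ran from -0.082 to 0.219 with 1 library left out.

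All genes called higher, 564 as reported, were 280 with the replicate block, 990 as TPM, 352 by median-of-ratios and 371 by quantile scaling, 88 with no filter, 29 with knockout replicate 1 alone and 100 to 428 with 1 library left out. Lower genes, 170, were 58 with no filter, 42 with knockout replicate 1 alone and 55 to 121 with 1 library left out. Higher genes made up 76.8% of calls as deposited, 60.9% after median-of-ratios and 64.5% after quantile scaling. Arrb1 kept its direction but lost its call with no filter (-2.64, adjusted p = 0.117, limma) and with knockout replicate 1 alone (-2.73, 0.259), and ran from -3.33 to -2.19 with 1 library left out.

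In the pathway lists, folding genes had 1 higher on the TPM scale, and 0 lower with no filter, the replicate block or knockout replicate 1 alone, and 0 to 1 with 1 library left out. Processing genes had 0 higher with no filter or knockout replicate 1 alone, 1 with the filter at 5 FPKM or the replicate block, and 0 to 2 with 1 library left out. Receptor genes had 1 higher on the TPM scale and by voom, and 0 to 1 with 1 library left out. Breakdown genes had 1 higher with no filter or the replicate block, 0 with knockout replicate 1 alone and 0 to 2 with 1 library left out, and 0 lower with no filter, the replicate block, knockout replicate 1 alone or any library left out. Transforming growth factor beta genes had 1 higher with no filter, 5 on the TPM scale, 0 with knockout replicate 1 alone and 1 to 4 with 1 library left out.

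The replicate numbers did not pair the libraries: deviations from the group means correlated at 0.170, -0.063 and 0.097 for numbers 1, 2 and 3, and not each library was closest to its own number. With the replicate number as a block, 5 chains were higher and 0 lower, as Col1a1 (adjusted p = 0.0515), Col5a1 (0.0671) and Col27a1 (0.0501) fell short by limma. The ratio tests with the block gave p = 0.25 for both type I and type III ratios by exact sign flips over 3 pairs, the smallest possible.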
